A study of Homo sapiens with 9 samples.

Results

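MYC, the RNA polymerase I machinery and the nucleolar factors that build ribosomes were followed in A498 cells depleted of BMAL1 or ARNT. The set held 43 genes, of 27671 genes in the count table, and was chosen by function: MYC itself, 7 genes of the RNA polymerase I machinery, 4 nucleolar chaperones and scaffold proteins, 7 proteins of the small nucleolar ribonucleoproteins (snoRNPs), 12 factors of the small subunit processome and 40S maturation, 9 factors of 60S maturation and 3 other nucleolar factors. The set was drawn up with earlier results of these data known, so comparisons of it with all genes are descriptions without a test. A498 is a human cell line established from a clear cell carcinoma of the kidney (ccRCC). Cells received lentiviral pLKO.1 vectors with a control short hairpin RNA (shControl, genotype given as WT), an shRNA to BMAL1 (shBMAL1, BMAL1 knockdown) or an shRNA to ARNT (shARNT, ARNT knockdown), and RNA of 3 biological replicates per group was sequenced. BMAL1, the circadian partner of CLOCK, and ARNT, which pairs with the hypoxia-inducible factors (HIFs), are related bHLH-PAS proteins, and the study asked what each contributes to expression driven by HIF2α. All 3 groups, controls included, carried a vector and had been under puromycin, at 2.5 µg/mL during 1 week of selection and at 1.25 µg/mL after that. Each depletion rested on 1 hairpin in 1 cell line, so an effect of the depletion and one of the hairpin cannot be told apart.

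Ribosome production starts in the nucleolus, where RNA polymerase I transcribes a long precursor that is cut, modified by snoRNPs and assembled with proteins into the 40S and 60S subunits. The transcription factor MYC is a well known activator of this programme and drives genes for polymerase subunits, snoRNP proteins and assembly factors, mostly by binding with MAX to the E-box CACGTG near their start sites. BMAL1 with CLOCK also binds E-boxes, and ARNT with a HIF subunit binds a related core, ACGTG or GCGTG.

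Library totals were even, from 35269857 to 36099083 counts. Levels are given as CPM, counts in proportion to a library total that was scaled by the trimmed mean method (TMM). The TMM factor was highest for shARNT (1.10 to 1.11), followed by shBMAL1 (0.961 to 0.971) and shControl (0.932 to 0.944). Each targeted transcript was lower in its own depletion: ARNT was at 18.8% of the control level in shARNT, and BMAL1, listed as ARNTL, at 30.9% in shBMAL1. ARNT was also at 63.9% in shBMAL1, and BMAL1 at 146% in shARNT. All 10 kidney and ccRCC markers examined were above 1 CPM in each group. Their summed level was 8370 to 8400 CPM in the controls, 6180 to 6630 with shBMAL1 and 2180 to 2340 with shARNT. Most of the fall in this sum lay in VIM, whose mean was 5970, 4310 and 812 CPM. EPAS1, the gene of HIF2α, was also on this list, with means of 345, 233 and 74.2 CPM. Counted by gene, 8 of the 10 fell with shARNT (median log2 fold change -1.24), 1 rose by 1.48 and 1 was not called. With shBMAL1, 9 fell (median -0.45) and 1 rose by 0.18. The summed level of 10 markers of other cell types was 2090 to 2200, 1840 to 1960 and 207 to 208 CPM, nearly all of it CD68 and COL1A1, with CD3E and CDH5 at 0. How far this loss of marker transcripts bears on the results in shARNT was not tested.

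The start of these genes carried the MYC-MAX and BMAL1-CLOCK motif in a larger share than genes at large, a description without a test. In RefSeq windows of GRCh38.p14 from 250 bases before to 50 bases after the annotated start site, an E-box was found in 12 of 36 members with a window (33.3%). The share was 25.8% of 120 other ribosome biogenesis genes, 10.1% of 10302 genes with at least 20 counts in 3 or more libraries and 7.43% of all 27305 genes in the table. For the members the difference lay just past the start site. There, 9 members (25.0%) had the E-box whole within the 50 bases after it, against 1.08% of the 10302 expressed genes. Before it, 2 members (5.56%) and 8.94% of those genes had one. Of the other ribosome biogenesis genes, 12.5% had one after the start site and 15.8% before it. An E-box past the start site was thus not particular to the members. The E-box is its own reverse complement and contains ACGTG. That core, on either strand, stood in 47.2% of member windows and 26.6% of those of the expressed genes, and GCGTG in 75.0% and 50.2%. A match describes the letters in the window and not a bound site. The 9 stretches with an E-box after the start site are shown because they share this place, and that of UTP20, one of the members that changed most, because its E-box ends just before the start site. Each is printed 5′ to 3′ on the strand of the gene with the E-box in capitals.
BYSL, chr6:41921515-41921544, plus strand: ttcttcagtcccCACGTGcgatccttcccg
FBL, chr19:39846356-39846385, minus strand: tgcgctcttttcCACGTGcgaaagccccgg
GNL2, chr1:37595917-37595946, minus strand: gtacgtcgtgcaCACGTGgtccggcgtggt
MRTO4, chr1:19251807-19251836, plus strand: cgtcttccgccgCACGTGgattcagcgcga
NOP14, chr4:2963374-2963403, minus strand: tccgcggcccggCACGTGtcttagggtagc
NOP2, chr12:6568242-6568271, minus strand: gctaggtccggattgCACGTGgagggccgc
PES1, chr22:30591880-30591909, minus strand: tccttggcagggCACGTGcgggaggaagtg
PNO1, chr2:68157885-68157914, plus strand: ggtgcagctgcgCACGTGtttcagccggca
WDR43, chr2:28894658-28894687, plus strand: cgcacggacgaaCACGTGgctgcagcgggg
UTP20, chr12:101280083-101280112, plus strand: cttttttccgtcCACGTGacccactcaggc

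Counted from 1 at the start site, the E-box began at base 4 in GNL2 and WDR43, 7 in FBL, 10 in PNO1, 14 in PES1, 15 in MRTO4, 16 in NOP14, 29 in BYSL and 36 in NOP2. That of UTP20 began 10 bases before the start site, RRP9 had one that began 5 bases before it and ran across it, and NOP10 had a pair, 11 and 170 bases before it. No window was at hand for 7 members, which were POLR1E, NOLC1, NOP58, RRP12, RRP1B, BOP1 and the regulator itself.

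Depletion of ARNT raised most of the 43 genes while MYC fell, and depletion of BMAL1 moved them in both directions and by less. All 43 passed the filter on low counts. In shARNT, 34 members were higher than in shControl, 8 were lower and 1, GNL3, was not called at an adjusted p of 0.1 (quasi-likelihood test of edgeR, adjusted by Benjamini-Hochberg over the 15551 genes tested, as for every adjusted p here). Across all genes tested, 40.5% were called higher and 41.3% lower in this comparison, so a call of either kind was common, and the calls of the members lay mostly on the higher side. Their median log2 fold change was 0.51, beside -0.01 for all genes. RNA was measured in bulk, and fewer cells of a type and less RNA per cell cannot be told apart.

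In shBMAL1, 14 members were higher, 13 were lower and 16 were not called, beside 31.9% higher and 31.5% lower among all genes. The median was 0.03, and 0 for all genes. No member changed by more than 1 on the log2 scale in shBMAL1, whereas 4.85% of all genes rose and 5.7% fell by more than that. In shARNT, 22 members (51.2%) had a log2 fold change above 0.5, beside 28.4% of all genes, and 8 (18.6%) were above 1, beside 12.4%.

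The direct contrast, which uses no control library, found 30 members higher in shARNT than in shBMAL1, 7 lower and 6 not called. Among all genes 40.1% were higher and 41.1% lower. The median of the members was 0.49 and that of all genes -0.01. The comparisons with shControl share the control libraries, so their values are given side by side. Counts of the role groups below are to be read against these shares of all genes.

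The median of the members was similar in the libraries of a group. The median log2 ratio of the members to their shControl mean was 0.51, 0.47 and 0.55 in the shARNT libraries, 0.04, 0.03 and 0.01 in shBMAL1 and 0.02, -0.01 and -0.02 in shControl. In shControl replicate 1, 29 members were above the shControl mean, and 16 and 15 in replicates 2 and 3. The 43 genes took 0.495% to 0.498% of all counts in shARNT libraries, 0.313% to 0.318% in shBMAL1 and 0.307% to 0.317% in shControl. Under scaling by library size alone the median of all genes moved to 0.23 in shARNT and that of the members to 0.75, a distance of 0.52 as under TMM, and 60.5% rather than 49.6% of all calls were then higher. The corresponding shares were 55.8% and 50.3% in shBMAL1 and 58.6% and 49.4% in the direct contrast. With a minimum fold change of 1.5 built into the test, 10 of the 43 members were higher and 4 lower in shARNT, and 1 was higher and 1 lower in shBMAL1. Among all genes at this setting, 20% were higher in shARNT and 44.8% were called in either direction. The same shares were 6.6% and 13.6% in shBMAL1. The share of members higher in shARNT was thus near that of all genes at this setting.

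**Figure D1:**
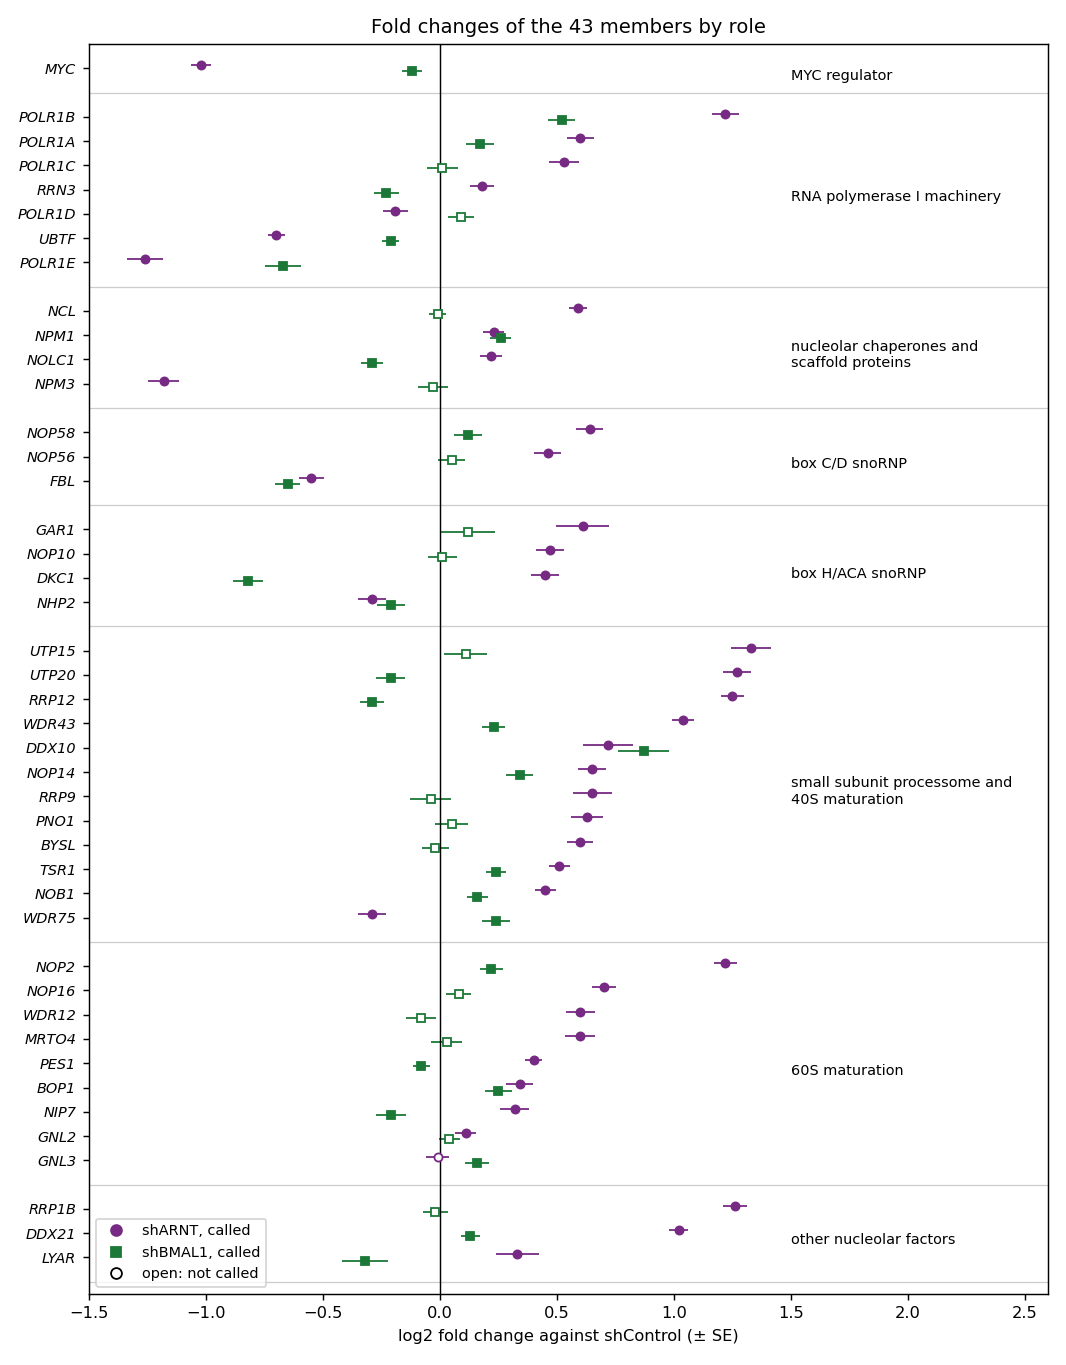
Log2 fold change against shControl (x axis) of each of the 43 members, grouped by role, with bars of 1 standard error from the edgeR fit of 3 libraries per group. Circles (shARNT) mostly lie right of 0 while MYC, POLR1E and NPM3 lie left of -1, and squares (shBMAL1) lie between -0.82 and 0.87 on both sides of 0; open symbols were not called.

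**Figure D2:**
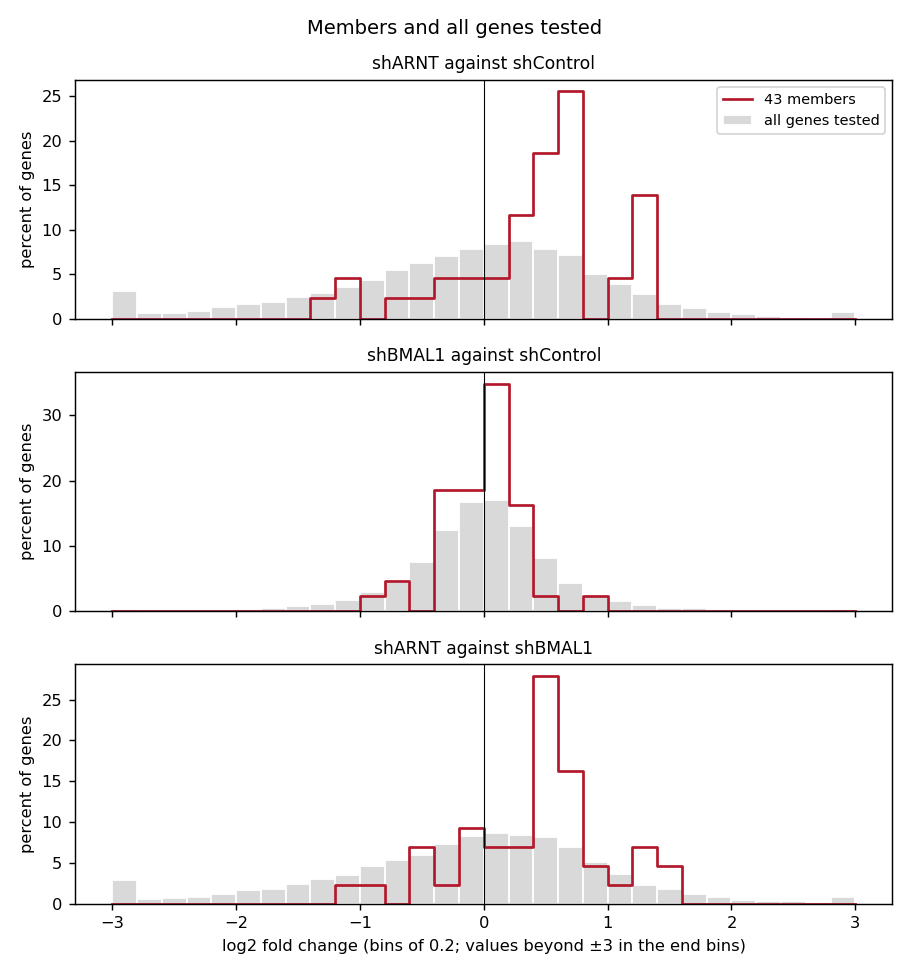
Share of the 43 members (red line) and of all 15551 genes tested (grey bars) in bins of log2 fold change, for the 3 comparisons. The members are shifted to the right in both comparisons with shARNT, with medians of 0.51 and 0.49, and are centred near 0 and more narrowly than all genes in shBMAL1.

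MYC was lowered in shARNT. It had 3145, 3016 and 3091 counts in the shControl libraries, 2943, 2921 and 2956 in shBMAL1 and 1795, 1840 and 1832 in shARNT. The shARNT libraries were thus well below all others, and the shBMAL1 libraries slightly below the controls, with no overlap between groups. In CPM the level was 93.2 ± 1.46 (SD, n = 3), 85.9 ± 1.07 and 46.0 ± 0.613. The shARNT level of MYC was 49.3% of control, so that it fell by 1.02 on the log2 scale (SE 0.044, adjusted p = 1.92e-14). The shBMAL1 level was 92.2%, a change of -0.12 (SE 0.0428, adjusted p = 0.0243) that lost its call under library size alone (-0.07, adjusted p = 0.174). The depletions differed by -0.90 (SE 0.044, adjusted p = 1.43e-13). CASC11, on the opposite strand, overlaps an exon of MYC, and the use of strand in counting is not given in the sources used here.

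Genes of the RNA polymerase I machinery were called in both directions, as were all genes tested. In shARNT 4 of its 7 genes rose and 3 fell (median 0.18), beside 40.5% and 41.3% of all genes. In shBMAL1 2 rose and 3 fell (median 0.01), beside 31.9% and 31.5%. In the direct contrast 4 were higher and 3 lower in shARNT, beside 40.1% and 41.1%. A division of this size was thus not particular to the polymerase genes. POLR1B, the second largest subunit (chromosome 2, 113299492 to 113337395, GRCh37, as for all gene positions below), rose in both depletions. Its level was 26.3, 24.8 and 24.6 CPM in shControl, 36.5, 36.8 and 35.2 in shBMAL1 and 56.5, 58.6 and 61.7 in shARNT. The 3 groups did not overlap and shARNT was the highest. POLR1B rose by 1.22 on the log2 scale with shARNT (SE 0.0561, adjusted p = 5.06e-14) and by 0.52 with shBMAL1 (SE 0.0575, adjusted p = 1.89e-07), and the depletions differed by 0.71 (adjusted p = 2.47e-10). POLR1A, the largest, catalytic subunit, also rose, by 0.60 with shARNT (adjusted p = 1.14e-08) and by 0.17 with shBMAL1 (adjusted p = 0.022), the latter not called without shControl replicate 2 (0.13, adjusted p = 0.122) or shBMAL1 replicate 3 (0.13, adjusted p = 0.1).

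POLR1E, the subunit also known as PAF53 (chromosome 9, 37485945 to 37503694), went the opposite way from POLR1B. It stood at 45.0, 48.0 and 46.7 CPM in shControl, 28.8, 31.6 and 27.4 in shBMAL1 and 20.1, 16.8 and 21.5 in shARNT, again with no overlap but with the controls highest. With shARNT it fell by 1.26 on the log2 scale (SE 0.0773, adjusted p = 6.02e-12) and with shBMAL1 by 0.67 (SE 0.0756, adjusted p = 2.31e-07), and was lower in shARNT than in shBMAL1 by 0.59 (adjusted p = 1.02e-06). UBTF, the factor that marks and bends the promoters of ribosomal RNA genes, fell from 223 ± 3.35 CPM to 192 ± 0.88 in shBMAL1 and 137 ± 1.74 in shARNT (log2 fold changes -0.21 and -0.70, adjusted p = 4.13e-05 and 3.98e-13). RRN3, which recruits the polymerase to UBTF-marked promoters, rose by 0.18 with shARNT (adjusted p = 0.0039) and fell by 0.23 with shBMAL1 (adjusted p = 0.00114), though 3 pseudogenes are named for it and could share its reads. The subunits held in common with RNA polymerase III differed from each other: POLR1C rose in shARNT by 0.53 (adjusted p = 2.62e-07) and POLR1D fell by 0.19 (adjusted p = 0.00299), a sign that became 0.04 (adjusted p = 0.466) under library size alone. In shBMAL1 their values were 0.01 and 0.09, without a call.

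Among the nucleolar chaperones and scaffold proteins, 3 of 4 rose in shARNT and NPM3 fell. NCL encodes nucleolin, an abundant RNA-binding protein of the nucleolus (chromosome 2, 232318242 to 232348352), and had the highest level of the set per length of transcript in shControl, 153 CPM per kilobase, ahead of PES1 (80.4) and FBL (79.3). NCL was at 654, 648 and 640 CPM in shControl, 602, 653 and 671 in shBMAL1 and 976, 984 and 963 in shARNT. The shARNT libraries were all higher than the rest, and those of shBMAL1 lay on both sides of the controls. NCL thus rose by 0.59 with shARNT (SE 0.038, adjusted p = 1.35e-11), and its log2 fold change with shBMAL1 was -0.01 (SE 0.038, adjusted p = 0.79). NPM3, of the nucleoplasmin family, went from 33.8 ± 2.18 CPM to 14.9 ± 0.754 in shARNT, a change of -1.18 (adjusted p = 1.76e-12), and was at 33.1 ± 0.88 in shBMAL1 (-0.03, adjusted p = 0.704). Its relative NPM1, nucleophosmin, rose in both depletions, by 0.23 and 0.26 (adjusted p = 1.14e-04 and 4.23e-05), but 49 pseudogenes are named for it and its value is uncertain. NOLC1, a chaperone of snoRNPs, rose by 0.22 with shARNT (adjusted p = 2.62e-04) and fell by 0.29 with shBMAL1 (adjusted p = 2.36e-05).

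In each snoRNP class the enzyme and some of its partners went different ways in 1 depletion or both. In box C/D snoRNPs, which guide methylation of ribosomal RNA, the scaffold proteins NOP56 and NOP58 rose in shARNT by 0.46 and 0.64 (adjusted p = 2.95e-07 and 2.47e-09). FBL, the methyltransferase fibrillarin (chromosome 19, 40325098 to 40337019), fell in both depletions. It was at 110, 116 and 107 CPM in shControl, 65.1, 72.5 and 75.0 in shBMAL1 and 77.7, 76.2 and 73.3 in shARNT. Both depleted groups lay below every control and overlapped each other. FBL fell by 0.55 with shARNT (SE 0.0526, adjusted p = 7.06e-09) and by 0.65 with shBMAL1 (SE 0.0531, adjusted p = 2.34e-09), with a difference of 0.10 between them (SE 0.0533, adjusted p = 0.104) that was called under 7 of 19 alternatives, at up to 0.29 (library size alone, adjusted p = 5.73e-05), and was 0.04 without shBMAL1 replicate 1 (adjusted p = 0.549). In shBMAL1 NOP58 rose by 0.12 (adjusted p = 0.0818), a call lost under 9 of 19 alternatives, and NOP56 was at 0.05 (adjusted p = 0.451).

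In box H/ACA snoRNPs, which guide pseudouridylation, DKC1 had the widest gap between the depletions. DKC1 encodes the pseudouridine synthase dyskerin (chromosome X, 153991017 to 154005964), whose enzyme also stabilises telomerase RNA. Its level was 82.0, 74.1 and 86.6 CPM in shControl, 50, 45.5 and 42.4 in shBMAL1 and 107, 112 and 112 in shARNT. All shBMAL1 libraries were below and all shARNT libraries above the controls. DKC1 fell by 0.82 with shBMAL1 (SE 0.0622, adjusted p = 8.03e-10) and rose by 0.45 with shARNT (SE 0.0595, adjusted p = 7.88e-07), and the depletions differed by 1.27 (SE 0.0615, adjusted p = 1.30e-13). Of the partners of dyskerin in shBMAL1, NHP2 also fell, by 0.21 (adjusted p = 0.00402), and NOP10 was at 0.01 (adjusted p = 0.943). GAR1 was at 0.12 (adjusted p = 0.395), but its control libraries had 451, 318 and 305 counts, and without shControl replicate 1 it was called higher (0.32, adjusted p = 0.0106). In shARNT GAR1 and NOP10 rose by 0.61 and 0.47 (adjusted p = 5.32e-05 and 5.59e-07) and NHP2 fell by 0.29 (adjusted p = 1.26e-04), a call that was lost under library size alone (-0.06, adjusted p = 0.366).

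The small subunit processome, which assembles on the nascent precursor, held the largest rises. In shARNT 11 of 12 genes of this group rose and 1 fell (median 0.65), against 6 and 2 in shBMAL1 (median 0.13), and in the direct contrast 10 were higher and 1 lower in shARNT (median 0.60). UTP15, a member of the early-binding UTP-A complex (chromosome 5, 72861268 to 72879205), was at 11.4, 11.4 and 9.56 CPM in shControl, 11.8, 12.6 and 10.4 in shBMAL1 and 26.8, 27.4 and 27.2 in shARNT. The shARNT libraries were above all others and the remaining groups overlapped. Its log2 fold change was 1.33 in shARNT (SE 0.0857, adjusted p = 1.33e-11) and 0.11 in shBMAL1 (SE 0.0912, adjusted p = 0.335), with 1.22 between the depletions (adjusted p = 4.39e-11). An exon of ANKRA2 on the opposite strand overlaps UTP15.

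UTP20, a large scaffold protein (chromosome 12, 101673883 to 101780396), was at 45.9, 40 and 42.7 CPM in shControl, 38.4, 37.7 and 34.7 in shBMAL1 and 98.4, 102 and 110 in shARNT. RRP12, which acts in export of precursor subunits (chromosome 10, 99116115 to 99185833), was at 90, 89.2 and 91.9 CPM in shControl, 80.7, 69.4 and 72.3 in shBMAL1 and 215, 208 and 222 in shARNT. For both genes the shARNT libraries were far above all others, and every shBMAL1 library was below the controls. UTP20 rose by 1.27 in shARNT (SE 0.0597, adjusted p = 7.57e-14) and fell by 0.21 in shBMAL1 (SE 0.0624, adjusted p = 0.00598). RRP12 rose by 1.25 in shARNT (SE 0.0498, adjusted p = 5.04e-15) and fell by 0.29 in shBMAL1 (SE 0.051, adjusted p = 7.38e-05). Between the depletions they differed by 1.49 (SE 0.0603) and 1.54 (SE 0.0503), the widest gaps of the 43 genes.

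DDX10, an RNA helicase (chromosome 11, 108535785 to 108811726) with 2 pseudogenes named for it that could share its reads, was the member with the largest rise in shBMAL1. It was at 10.8, 8.62 and 11.6 CPM in shControl, 18.0, 17.5 and 21.1 in shBMAL1 and 18.8, 16.7 and 15.4 in shARNT, so that both depleted groups were above the controls and overlapped. DDX10 rose by 0.87 with shBMAL1 (SE 0.108, adjusted p = 8.22e-07) and by 0.72 with shARNT (SE 0.107, adjusted p = 4.49e-06), with -0.15 between them (SE 0.102, adjusted p = 0.172), which was called without shARNT replicate 1 (-0.23, adjusted p = 0.067). It was the member still higher in shBMAL1 with the minimum fold change of 1.5, as DKC1 was the one still lower. The UTP-A members WDR43 and WDR75 went apart in shARNT: WDR43 rose by 1.04 (adjusted p = 4.55e-14) and WDR75 fell by 0.29 (adjusted p = 1.64e-04), which was -0.06 (adjusted p = 0.415) under library size alone. In shBMAL1 both rose, by 0.23 and 0.24 (adjusted p = 3.82e-04 and 0.00177).

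The late 40S factors rose in shARNT by similar amounts. TSR1, NOB1, the endonuclease that completes 18S ribosomal RNA, BYSL and PNO1 had log2 fold changes of 0.51, 0.45, 0.60 and 0.63, and RRP9, a protein of the U3 snoRNP, 0.65, with adjusted p between 1.36e-09 and 4.78e-07. In shBMAL1 TSR1 and NOB1 rose by 0.24 and 0.16 (adjusted p = 9.20e-05 and 0.00548), and BYSL, PNO1 and RRP9 were at -0.02, 0.05 and -0.04 without a call. NOP14 was listed as higher in both depletions, by 0.65 and 0.34 (adjusted p = 2.66e-09 and 5.78e-05), but its deposited values are fractions of reads divided with the opposite-strand NOP14-AS1. The antisense gene received 45.33% to 47.44% of their joint reads in the controls, 28.7% to 32.26% with shBMAL1 and 24.17% to 25.21% with shARNT. The sum of both changed by 0.15 in shARNT (adjusted p = 0.0117) and by -0.05 in shBMAL1 (adjusted p = 0.448), so the rise of NOP14 is uncertain.

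Of the 9 factors of 60S maturation, 8 rose in shARNT and none fell (median 0.40), and in shBMAL1 3 rose and 2 fell (median 0.04). NOP2, a methyltransferase of 28S ribosomal RNA (chromosome 12, 6666029 to 6677857), rose from 54.9 ± 1.94 CPM to 128 ± 1.01 in shARNT and to 63.8 ± 3.44 in shBMAL1, with log2 fold changes of 1.22 and 0.22 (adjusted p = 4.87e-15 and 8.83e-04) and 1.00 between the depletions (adjusted p = 9.54e-14). The partners of the PeBoW complex, which acts on the 60S precursor, all rose in shARNT. PES1 (chromosome 22, 30972612 to 31003070) was at 222, 217 and 227 CPM in shControl, 208, 214 and 209 in shBMAL1 and 295, 294 and 290 in shARNT. The shARNT libraries were above all others and the shBMAL1 libraries just below the controls. PES1 rose by 0.40 in shARNT (SE 0.0358, adjusted p = 2.43e-09), and its change of -0.08 in shBMAL1 (SE 0.036, adjusted p = 0.074) was 0 (adjusted p = 0.953) after removal of the trend with GC content. WDR12 rose in shARNT by 0.60 (adjusted p = 2.10e-08) and BOP1 by 0.34 (adjusted p = 2.48e-05). In shBMAL1 WDR12 was at -0.08 (adjusted p = 0.275) and BOP1 rose by 0.25 (adjusted p = 0.00112).

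The remaining 60S factors showed how far the group varied. NOP16, MRTO4, which holds the place of a stalk protein on the precursor, and NIP7 rose in shARNT by 0.70, 0.60 and 0.32 (adjusted p = 1.37e-10, 3.69e-08 and 9.01e-05). The GTPase GNL2 was higher by 0.11 (adjusted p = 0.0395), a call lost without shControl replicate 3 (0.07, adjusted p = 0.225) or without shARNT replicate 2 (0.10, adjusted p = 0.108). Its relative GNL3, nucleostemin, a GTPase of stem and tumour cells, was at -0.01 in shARNT (SE 0.0507, adjusted p = 0.893) and was called higher under library size alone (0.23, adjusted p = 5.33e-04). In shBMAL1 GNL3 rose by 0.16 (adjusted p = 0.0102), NIP7 fell by 0.21 (adjusted p = 0.00858), and NOP16, MRTO4 and GNL2 were at 0.08, 0.03 and 0.04 without a call.

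All 3 other nucleolar factors rose in shARNT. RRP1B, a nucleolar protein that binds chromatin and protein phosphatase 1 (chromosome 21, 45079441 to 45115960), was at 46.2, 43.8 and 43 CPM in shControl, 44.5, 41.1 and 45.4 in shBMAL1 and 102, 106 and 110 in shARNT. The control and shBMAL1 libraries were interleaved and the shARNT libraries far above them. RRP1B rose by 1.26 with shARNT (SE 0.0525, adjusted p = 1.15e-14) and its value with shBMAL1 was -0.02 (SE 0.0543, adjusted p = 0.754), with 1.28 between the depletions (adjusted p = 8.65e-15). DDX21, an RNA helicase at ribosomal and snoRNA genes, rose by 1.02 (adjusted p = 5.00e-15) and LYAR by 0.33 (adjusted p = 0.00269) in shARNT. In shBMAL1 DDX21 rose by 0.13 (adjusted p = 0.0126), which was not called after removal of the GC trend (0.06, adjusted p = 0.213), and LYAR fell by 0.32 (adjusted p = 0.00691).

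**Figure D3:**
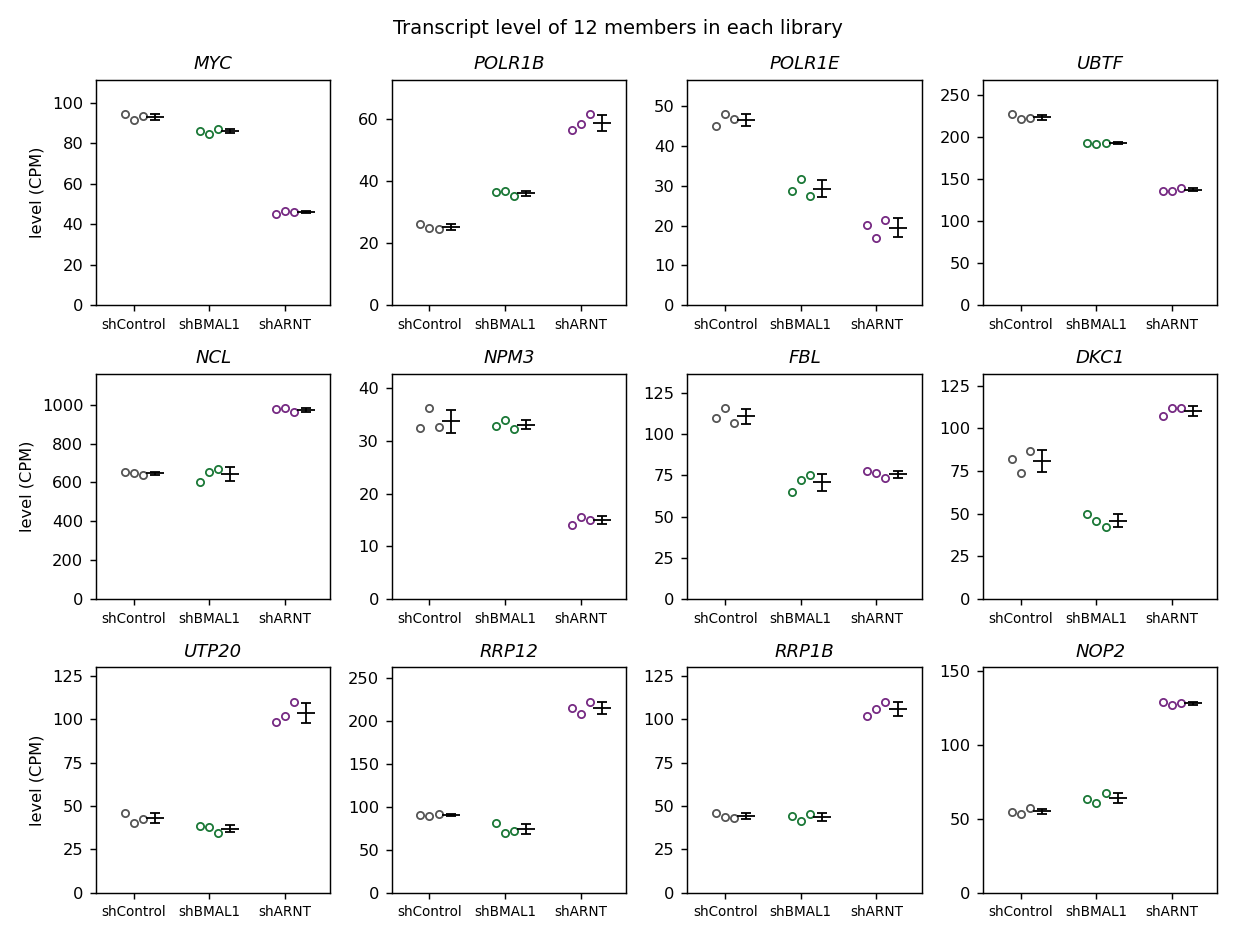
Transcript level in CPM (y axes, each from 0) of 12 members in the 9 libraries; open circles are libraries, and bars give the mean and SD of 3. MYC, POLR1E, UBTF and NPM3 are lowest in shARNT, POLR1B, NCL, UTP20, RRP12, RRP1B and NOP2 are highest there, FBL is low in both depletions, and DKC1 is lowest in shBMAL1 and highest in shARNT.

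Members with an E-box in the window and members without one both rose more often than they fell in shARNT. Whether the E-box bears on these changes was not tested, and members without a window are left out. Of the 12 members with an E-box in the window, 11 rose and 1, FBL, fell in shARNT (median 0.62), and of the 24 with a window and no E-box, 18 rose and 5 fell (median 0.46). In shBMAL1 the E-box members numbered 3 higher and 3 lower (median 0.02) and the others 9 higher and 6 lower (median 0.09). In the direct contrast 10 E-box members were higher and 0 lower in shARNT (median 0.57), and of the others 16 were higher and 5 lower (median 0.42). Among all genes 40.5% were higher and 41.3% lower in shARNT, 31.9% and 31.5% in shBMAL1, and 40.1% and 41.1% in the direct contrast. WDR43 and GNL2, whose E-boxes began at base 4, rose by 1.04 and 0.11 in shARNT. Whether the place of the E-box bears on the change was not tested.

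Other genes of the programme were also more often higher than lower in shARNT. Among 14 other genes of RNA polymerase I and its promoter factors, 10 rose and 2 fell in shARNT (median 0.66). In shBMAL1 4 rose and 4 fell (median 0.03). This list also held the POLR2 subunits that RNA polymerase I shares with RNA polymerases II and III. TAF1C, a subunit of the promoter selectivity factor SL1, rose from 47.2 to 171 CPM in shARNT (log2 fold change 1.85, adjusted p = 2.46e-16). Of 52 other 40S biogenesis genes 39 rose and 7 fell in shARNT (median 0.67), and of 55 other 60S biogenesis genes 42 rose and 9 fell (median 0.59). The largest rises of these lists were those of TBL3, of the small subunit processome (1.62, adjusted p = 1.99e-17), and WDR18, of the 60S rixosome complex (2.42, adjusted p = 1.48e-18). In shBMAL1 the same lists had 24 and 25 genes higher and 16 and 17 lower, with medians of 0.04 and 0.08. BUD23, a methyltransferase of 18S ribosomal RNA, rose there from 124 to 330 CPM (1.41, adjusted p = 1.29e-16). These counts are read against the shares of all genes given above. The lists were chosen with earlier results of these data known, and no test of them was made.

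Partners of MYC and its targets outside the ribosome were less uniform. Of 17 tested genes of the MYC network, 8 rose and 8 fell in shARNT (median -0.01), and 3 rose and 9 fell in shBMAL1 (median -0.19). MXD1, a MAX partner that opposes MYC, rose from 1.19 to 9.57 CPM in shARNT and 3.50 in shBMAL1 (log2 fold changes 3.01 and 1.55, adjusted p = 5.98e-11 and 9.48e-06). MLXIPL, the glucose-responsive factor ChREBP, fell from 57.9 to 1.21 CPM in shARNT and 9.65 in shBMAL1 (-5.58 and -2.59, adjusted p = 3.05e-19 and 7.47e-15). Of 19 tested MYC targets outside the 43, 13 rose and 5 fell in shARNT (median 0.40), and 7 rose and 9 fell in shBMAL1 (median -0.09). PA2G4, a growth regulator found in the nucleolus, and SRM, spermidine synthase, fell in shARNT (-1.32 and -1.01, adjusted p = 1.08e-14 and 8.67e-14). IPO4 rose there by 0.96 (adjusted p = 1.22e-13). ODC1, the first enzyme of polyamine synthesis, fell by 0.74 in shBMAL1 (adjusted p = 4.83e-10), the most of this list. TFRC rose there by 0.72 (adjusted p = 2.37e-10).

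**Figure D4:**
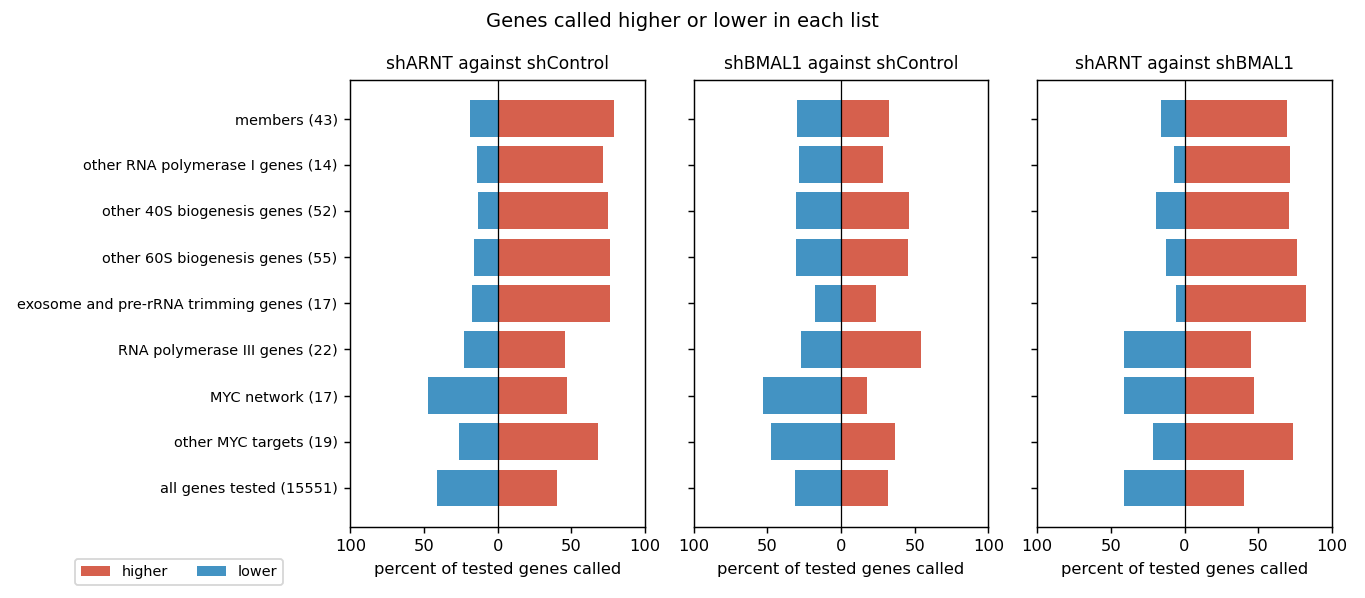
Percent of tested genes of each list called higher (right, red) or lower (left, blue) at an adjusted p under 0.1, with the number tested in brackets, for the 3 comparisons. In shARNT the members and the 4 ribosome biogenesis lists under them lean towards higher, the MYC network is even, and all genes tested have 40.5% higher and 41.3% lower; in shBMAL1 the members lie near the 31.9% and 31.5% of all genes, and 9 of 17 MYC network genes are lower.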

How the data were processed

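RNA of 9 A498 libraries, 3 per group, was sequenced as stranded mRNA libraries on a BGISEQ-500. According to the methods of the study, reads were aligned to GRCh37 with SeqMan NGen and counted with ArrayStar, whereas the submitters' processing notes name STAR, DESeq2 and hg38, and the files carry no coordinates that could settle this. The use of strand and of reads with several alignments is not given in the sources used here. The authors deposited expected counts, not normalized. A value of 0.05 stood for no reads and was set to 0, values under the same name were summed (45 names), which gave 27671 genes, and the sums were rounded. The filter filterByExpr left 15551 genes. Groups followed the labels. A single edgeR 4.0.16 quasi-likelihood fit (R 4.3.3, TMM, group as the factor, common dispersion 0.00311) gave 3 contrasts, called at an adjusted p under 0.1, and CPM are counts over TMM-scaled totals. The labels call the samples biological replicates without saying whether they were separate infections, so p-values measure the spread between these samples. Libraries of a group differed by more than sampling noise, and no batch was given. The chi-square per gene was 18.1 and 17 for shControl replicate 1 against replicates 2 and 3, and 4.55 between replicates 2 and 3.

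The members and lists, written from general knowledge, were chosen with earlier results of these data known. Described with every library were MYC, the 5 members with the largest called, non-overlapping change in each contrast (average log2 CPM of at least 2) and the 3 with the most counts per kilobase; any member could be named, and from other lists at most 3 genes per contrast. Positions, lengths and GC content came from GENCODE v44 lifted to GRCh37, and promoter windows (the first listed per gene) from RefSeq. Besides the members marked in the text, GENCODE names pseudogenes for NCL and NHP2 (2 each), NOP56 (3) and GNL2 (1). Exons of opposite-strand genes also overlap those of POLR1C, NHP2, TSR1, PES1, WDR12, GNL2, GNL3, NOP16 and NIP7. Small RNA genes on the same strand overlap exons of NCL, NOP56, NOP58, DKC1 and GNL3. The fit was tested on simulated counts in which few genes changed, unlike in these data, so that test does not bear on the scaling. Alternatives were scaling by library size alone or by relative log expression, DESeq2 1.42.0, no filter, the compared libraries only, a replicate block, leaving out each library, halved counts, an adjusted p under 0.05, a minimum fold change of 1.5 and removal of a GC trend (loess span 0.5, 14230 genes with a value). Chosen after seeing the data, the reads of NOP14 and NOP14-AS1 were also summed.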

Additional observations from a re-analysis of the deposited data

Results flagged for a closer look

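There were 9 members called in opposite directions in the depletions, measured against the same shControl libraries. The direct contrast of shARNT with shBMAL1 was also called for them. For genes picked by opposite calls, that call was nearly given in advance and adds no separate support. The 9 are 20.9% of the 43, beside 19.4% of all 15551 genes tested, so opposite calls were about as frequent among all genes. Of the 9, 8 (18.6% of members, beside 8.99% of all genes) rose with shARNT and fell with shBMAL1. The difference between the depletions was 1.54 for RRP12 (adjusted p = 2.18e-16), 1.49 for UTP20 (adjusted p = 7.13e-15), 1.27 for DKC1 (adjusted p = 1.30e-13), 0.66 for LYAR (adjusted p = 2.26e-06), 0.53 for NIP7 (adjusted p = 1.64e-07), 0.51 for NOLC1 (adjusted p = 3.87e-09), 0.48 for PES1 (adjusted p = 1.57e-10) and 0.41 for RRN3 (adjusted p = 6.21e-07). They come from different steps of the pathway: polymerase recruitment (RRN3), snoRNPs (NOLC1, DKC1), the 40S precursor (UTP20, RRP12) and the 60S precursor (PES1, NIP7), with LYAR among the other nucleolar factors. WDR75, of the small subunit processome, was the exception, lower in shARNT and higher in shBMAL1, with a difference of -0.53 (adjusted p = 7.28e-08). The opposite sign is weakly held for PES1, whose change in shBMAL1 was not called under 10 of 19 alternatives, and for WDR75, whose fall in shARNT was not called under library size alone. Pseudogenes that could share reads are named for RRN3 and NIP7 (3 each), PES1 (2), and NOLC1 and LYAR (1 each).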

How the results depend on the processing

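Under library size alone the members' medians were 0.75 (shARNT), 0.08 (shBMAL1) and 0.68 (direct contrast), and 5 members were lower in shARNT. With a minimum fold change of 1.5 the members higher and lower were 10 and 4 in shARNT, 1 and 1 in shBMAL1, and 11 and 2 in the direct contrast. Among all 15551 genes tested the counts were 3116 and 3850, 1026 and 1084, and 3017 and 3814. That put 20%, 6.6% and 19.4% of all genes higher. Removal of the GC trend gave a direct median of 0.51. Leaving out 1 library gave medians of 0.48 to 0.53, 0 to 0.03 (0 without shControl replicate 3) and 0.46 to 0.52, with 33 to 34 members higher and 8 lower in shARNT, 13 to 14 and 12 to 13 in shBMAL1, and 30 to 31 and 7 to 8 in the direct contrast. Among members called under either setting, signs turned under library size alone for POLR1D (0.04) and GNL3 (0.23) in shARNT and for NPM1 (0.15), NHP2 (0.11) and GNL3 (0.02) in the direct contrast, and for NOP14 in shBMAL1 (-0.05) when reads of NOP14-AS1 were added. Replicate numbers did not pair the libraries (correlations of deviations -0.04 to 0.08 over 9 pairs, 2 libraries closest to their own number), and with a replicate block 34 and 8, 14 and 13, and 30 and 7 members were called, with medians of 0.51, 0.03 and 0.49. The remaining alternatives kept every count within 1.5 times and every median within the spread of the libraries. Sign and call held under all 19 alternatives for 14 members called with shARNT, 2 with shBMAL1 and 13 in the direct contrast. The cause of these changes was not tested. Halved counts left the numbers of called members at 34 and 8, 14 and 13, and 30 and 7.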

Other observations

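RNA polymerase III makes transfer RNAs and the 5S ribosomal RNA. A smaller share of its genes was higher in shARNT than in the lists of other RNA polymerase I and assembly genes. This difference was not tested, and subunits shared by both polymerases were counted with RNA polymerase I only. Of 22 genes of RNA polymerase III subunits and factors, 10 rose and 5 fell in shARNT (median 0.16). In shBMAL1 12 rose and 6 fell (median 0.20). In the direct contrast 10 were higher and 9 lower in shARNT (median 0.01). The 7 RNA polymerase I members had a median of 0.18 in shARNT against shControl, with 4 higher and 3 lower. The subunit POLR3E rose from 47.1 to 112 CPM in shARNT (log2 fold change 1.24, adjusted p = 1.32e-14). GTF3A, the factor for 5S genes, was lower in shARNT than in shBMAL1 (46.5 and 109 CPM, a difference of -1.22, adjusted p = 2.13e-15). Under library size alone 16 of the 22 RNA polymerase III genes were higher and 4 lower in shARNT, beside 50.3% of all genes tested higher. At that setting 11 of the 14 other RNA polymerase I genes were higher and 1 lower, so these 2 lists differed less.

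The exosome and other factors that trim the ends of the ribosomal precursor rose in shARNT in 13 of 17 genes and fell in 3 (median 0.65), while in shBMAL1 4 rose and 3 fell (median -0.06). EXOSC4 and EXOSC7, subunits of the exosome ring, rose in shARNT from 16.7 to 67.3 CPM and from 17.6 to 46.7 CPM (log2 fold changes 2.01 and 1.41, adjusted p = 1.96e-16 and 2.50e-14). The catalytic subunit DIS3 went from 82.0 CPM in shControl to 56.5 in shBMAL1 (log2 fold change -0.54, adjusted p = 3.93e-09).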
